A study of Mus musculus with 24 samples.

Results

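The genes described here are 10 members of the upper and lower arms of glycolysis: the glucose transporter Slc2a1, the hexokinases Hk1 and Hk2, the phosphofructokinases Pfkm, Pfkl and Pfkp, the phosphoglycerate mutases Pgam1 and Pgam2, and the enolases Eno1 and Eno3. They were taken by gene symbol from the read count table, where all 10 were found among 24015 genes, and all 10 were among the 13816 genes that passed the filter on low counts. Within each enzyme family the form that prevails in striated muscle was set against the form that prevails in other tissues: Hk2 against Hk1, Pfkm against Pfkp and Pfkl, Pgam2 against Pgam1, and Eno3 against Eno1.

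The study sequenced RNA of the left ventricle of mice after transverse aortic constriction (TAC), a narrowing of the aorta that makes the left ventricle pump against a raised pressure, or after a sham operation. Hearts were taken on day 2, 4, 7 or 21, which gives 4 TAC groups and 4 sham groups of 3 libraries each, 24 in all. The labels describe the tissue as whole left ventricle frozen at harvest, and give no strain, age, sex or genotype for any group. They do not say whether the libraries of a group come from separate mice, so the p-values measure the spread between these libraries. Pairs of libraries of a group differed by a chi-square per degree of freedom of 3.52 to 10.6 in sham and 14.2 to 58.9 in TAC. That is more than repeated sequencing of the same library would give. Whether this spread lies between mice cannot be told from the labels.

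Glycolysis turns glucose into pyruvate. Glucose enters through carriers such as Slc2a1 (GLUT1), hexokinase traps it as glucose 6-phosphate, phosphofructokinase makes the committed step to fructose 1,6-bisphosphate, and phosphoglycerate mutase and enolase carry the chain on to phosphoenolpyruvate. Most of these steps have several genes whose proteins catalyse the same reaction but differ in regulation and tissue: adult heart muscle expresses mainly the muscle forms and the insulin-responsive transporter Slc2a4 (GLUT4), whereas fetal heart, proliferating cells and most other tissues use the other forms.

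Levels are given in 2 ways. Reads counted per gene were scaled for library size with TMM factors (CPM), and these values serve to compare 1 gene between libraries. The authors' RPKM, which divide reads by gene length and library size, serve to compare genes with each other. Effects are given as the log2 ratio of TAC to sham with its standard error (SE), tested with edgeR's quasi-likelihood test. P-values were adjusted after Benjamini and Hochberg over the 13816 genes, and "rose" and "fell" mean an adjusted p under 0.05.

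The libraries held 10.7 to 17.6 M counted reads. The 12 cardiomyocyte markers looked up, among them Myh6, Tnnt2 and Actn2, summed to 183634 to 206862 CPM in the sham libraries and 129657 to 199929 CPM in the TAC libraries. At days 2, 4, 7 and 21, 0, 4, 4 and 0 of them fell (0.854%, 10.1%, 10% and 0.47% of all genes), and 1 rose at day 2. In the average over days 7 fell and 1 rose (21.4% and 24.4% of all genes), with a median log2 fold change of -0.24. Of 14 macrophage markers tested 6, 14, 13 and 0 rose at days 2, 4, 7 and 21, of 12 fibroblast markers 0, 8, 9 and 0, and of 10 proliferation markers 8, 10, 10 and 0, against 3.73%, 14.4%, 13.1% and 0.622% of all genes. In RNA of whole tissue, fewer cells of a type and less RNA per cell cannot be told apart. The 12 skeletal muscle markers summed to 16.5 to 59.2 CPM in sham and 37.0 to 170 CPM in TAC libraries, nearly all of it Mybpc2 and Casq1 (up to 1631 and 1277 reads). Tnnt3 and Myh4 reached 85 and 52 reads and the other 8, among them Myh1, Myh2, Mylpf and Myog, at most 16; of the 4 markers tested 2, 3, 1 and 0 rose. The atrial gene Myl7 exceeded 30 CPM in 4 libraries (sham day 2 replicates 2 and 3, TAC day 7 replicate 1 and sham day 21 replicate 2), and results that change without these are given with both values.

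**Figure D1:**
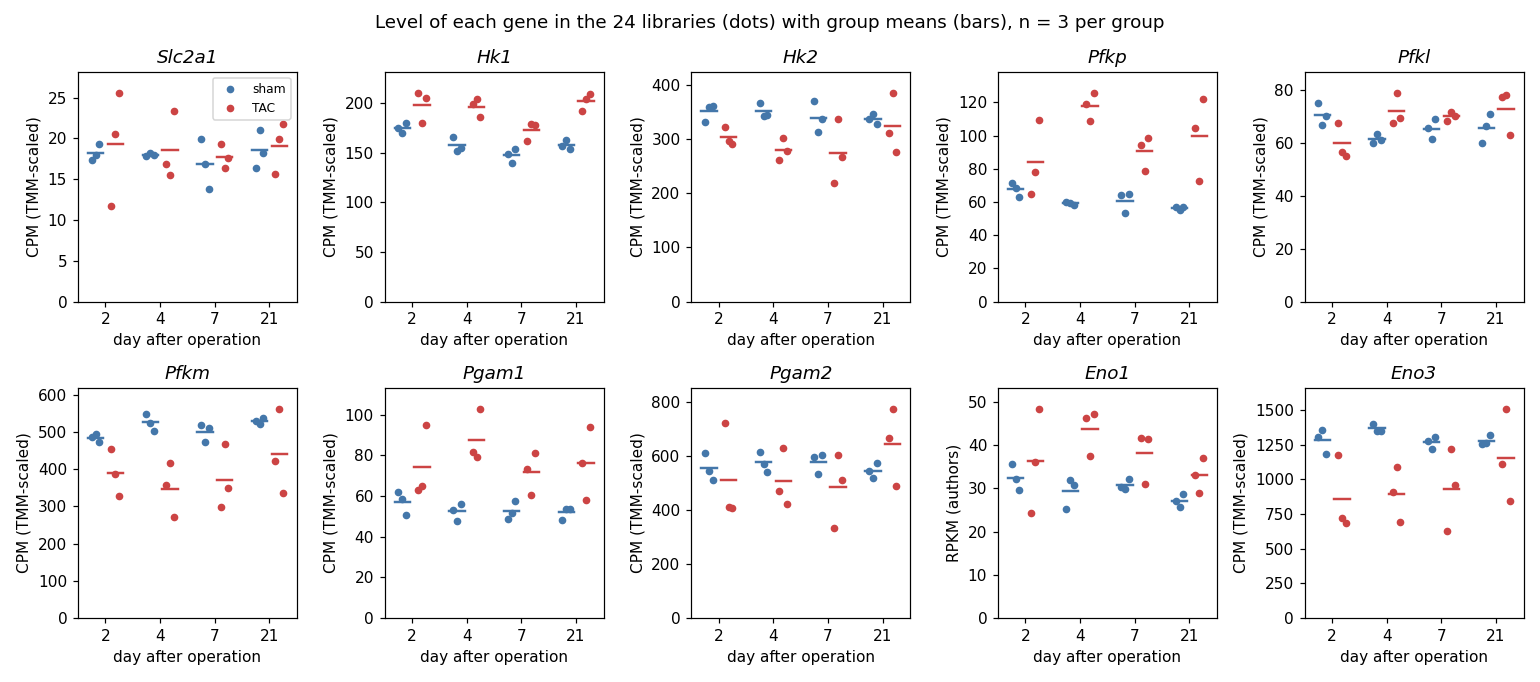
Level of the 10 genes in each of the 24 libraries by day after the operation (dots; blue sham, red TAC) with the mean of 3 libraries (bars). The vertical axis starts at 0 and is in TMM-scaled CPM, for Eno1 in the authors' RPKM; Pfkp in TAC lay at 64.7 to 126 CPM and in sham at 53.1 to 71.4 CPM.

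In sham hearts the muscle form was the more abundant of each family per length. Over the 12 sham libraries Eno3 had 1055 ± 51.9 RPKM (SD, n = 12) and Pgam2 851 ± 63.8 RPKM, followed by Pfkm with 205 ± 7.66 RPKM, Hk2 with 63.4 ± 3.28 RPKM and Hk1 with 42.0 ± 3.89 RPKM. Pgam1 had 31.2 ± 2.65 RPKM, Eno1 29.9 ± 2.99 RPKM, Pfkl 19.9 ± 1.92 RPKM, Pfkp 16.5 ± 1.31 RPKM, and Slc2a1 was lowest with a median of 7.34 RPKM. The ranges of Pgam1 (27.9 to 36.2 RPKM) and Eno1 (25.2 to 35.7 RPKM) overlapped almost fully, and those of Pfkl (16.5 to 23.4 RPKM) and Pfkp (14.8 to 18.9 RPKM) in part. Within a library Pgam1 was above Eno1 in 10 of 12 sham libraries, and Pfkl above Pfkp in 11 of 12. None of the 10 genes differed between the 4 sham groups by edgeR's test (0 of 10, against 0.68% of all genes; Hk1 alone had an unadjusted p under 0.05, and limma voom called 0).

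At day 2 none of the 10 genes passed edgeR's test, where 4.58% of all genes did (3.73% higher and 0.854% lower in TAC); 4 had an unadjusted p under 0.05 (Hk1, Pfkl, Pgam1 and Eno3), and DESeq2 and limma voom called 0. At day 4, where 24.6% of all genes passed, 3 rose (Hk1, Pfkp and Pgam1; 14.4% of all genes rose) and 2 fell (Pfkm and Eno3; 10.1% of all genes fell). At day 7, where 23.2% of all genes passed (13.1% higher and 10% lower), Hk1 and Pfkp rose and none fell; Hk2 and Pfkm were lower at an unadjusted p under 0.05. At day 21, where 1.09% of all genes passed (0.622% higher and 0.47% lower), Hk1 and Pfkp rose, and none fell or was lower at an unadjusted p under 0.05. In the average over the 4 days, where 45.7% of all genes passed (24.4% higher and 21.4% lower), the 3 that rose were Hk1, Pfkp and Pgam1, and the 3 that fell were Hk2, Pfkm and Eno3. Each gene that rose is a non-muscle form and each that fell is a muscle form.

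The libraries themselves can be compared without a model. All 3 TAC libraries lay above all 3 sham libraries in CPM for 1 member at day 2 (Pgam1; 11.2% of all genes), 4 at day 4 (Hk1, Pfkl, Pfkp and Pgam1; 21.5%), 3 at day 7 (Hk1, Pfkp and Pgam1; 20.5%) and 3 at day 21 (Hk1, Pfkp and Pgam1; 11.9%). All TAC libraries lay below all sham libraries for 3 members at day 2 (11.2% of all genes) and at day 4 (19.6%), each time Hk2, Pfkm and Eno3, for Pfkm alone at day 7 (19.4%) and for none at day 21 (10.5%). Eno1 is left out of these counts, since its reads are too few.

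The counts for single days depended on single libraries. At day 7 no member rose without sham day 7 replicate 2 or without TAC day 7 replicate 3, nor without the 4 libraries with raised Myl7. At day 21 none rose without any 1 of the 3 sham day 21 libraries or without TAC day 21 replicate 1 or 3, nor without the libraries with raised Myl7, and 3 rose (Pgam1 added) without TAC day 21 replicate 2. The 3 genes that rose at day 4 were called without each of the 24 libraries in turn.

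**Figure D2:**
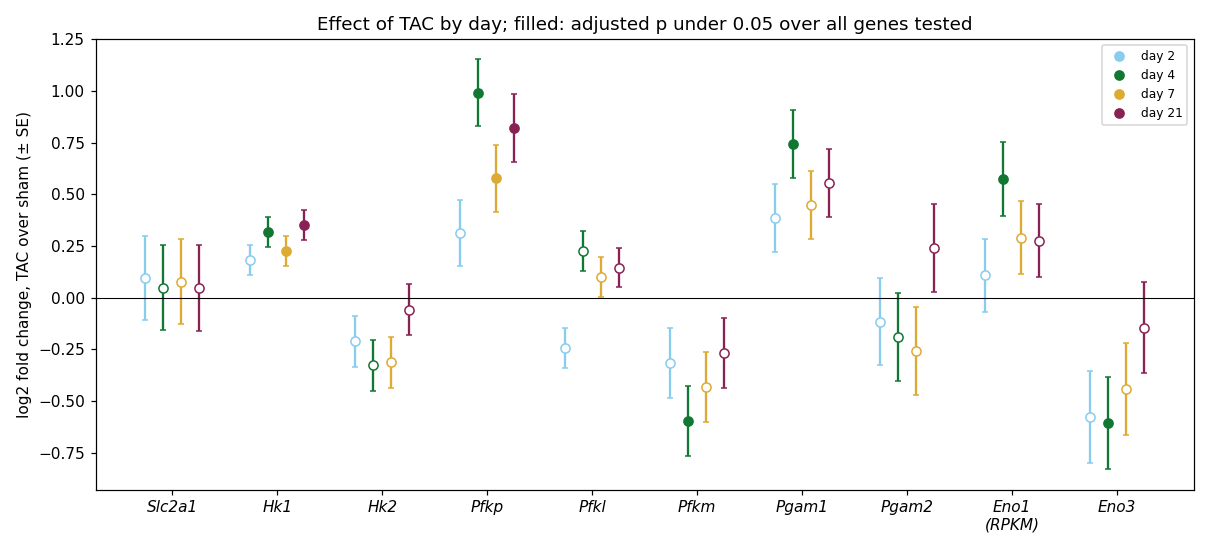
Effect of TAC on each gene at days 2, 4, 7 and 21, as log2 fold change of TAC over sham with its SE (bars), from edgeR on read counts and for Eno1 from limma on log2(RPKM + 0.1). Filled points passed an adjusted p of 0.05: Hk1 and Pfkp at 3 days, Pgam1, Pfkm, Eno3 and Eno1 at day 4.

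Slc2a1, the basal glucose transporter GLUT1, had 11.7 to 25.6 CPM in the 12 TAC libraries (median 18.4 CPM) and 13.8 to 21.1 CPM in the 12 sham libraries (median 17.9 CPM). The lowest and the highest value were both TAC libraries of day 2, and the groups overlapped on every day. The log2 fold change averaged over days was 0.07 ± 0.10 (adjusted p = 0.618), and at single days it was 0.09, 0.05, 0.08 and 0.05, each with an SE of 0.20 to 0.21. These single-day values changed sign in some of the alternatives. With 145 to 456 reads per library Slc2a1 was the least counted member after Eno1.

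Among the other genes of glucose entry, 6 of the 7 listed passed the filter, and none passed edgeR's test on a single day (unadjusted p under 0.05 for 0, 3, 1 and 1 of 6 at days 2, 4, 7 and 21). Of all genes 4.58%, 24.6%, 23.2% and 1.09% passed on these days. In the average over days 2 of the 6 rose and 2 fell, where 24.4% of all genes rose and 21.4% fell. Slc2a4 (GLUT4) fell by 0.41 on the log2 scale (SE 0.10, adjusted p = 0.00312), from 194 to 240 CPM in sham libraries to 108 to 236 CPM in TAC libraries. Slc2a12, another glucose transporter, fell by 0.63 (SE 0.17, adjusted p = 0.00553). The hexokinase Hk3 rose by 0.77 ± 0.22 (adjusted p = 0.00796), at group means of 0.678 to 1.83 CPM. The median log2 fold change of the 6 genes was -0.08, against -0.00 over all genes tested.

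Hk1, the hexokinase of brain and most other tissues, rose in TAC hearts at days 4, 7 and 21. At day 4 the sham libraries had 166, 151 and 154 CPM and the TAC libraries 198, 204 and 186 CPM. At day 7 the sham libraries had 149, 140 and 153 CPM and the TAC libraries 161, 178 and 178 CPM. At day 21 the values were 156, 163 and 154 CPM in sham and 192, 203 and 209 CPM in TAC. All TAC libraries lay above all sham libraries at these 3 days. At day 2 the lowest TAC library and the highest sham library were at the same level (179 and 180 CPM).

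The effects on Hk1 were 0.18 ± 0.07 (adjusted p = 0.160), 0.32 ± 0.07 (adjusted p = 0.00390), 0.23 ± 0.07 (adjusted p = 0.0302) and 0.35 ± 0.07 (adjusted p = 0.0250) at days 2, 4, 7 and 21. Averaged over days the gene rose by 0.27 ± 0.04 (adjusted p = 9.29e-06), and this call and that of day 4 held in every alternative run. The calls at days 7 and 21 did not. At day 7 the adjusted p reached 0.113 without sham day 7 replicate 2 and lay between 0.0521 and 0.0920 without sham replicate 1 or 3 or TAC replicate 2 or 3. At day 21 it reached 0.134 without sham day 21 replicate 3, and lay between 0.0614 and 0.112 without sham replicate 1 or 2 or TAC replicate 1 or 3. Without the libraries with raised Myl7 it was 0.0655 at day 7 and 0.0998 at day 21, with effects of 0.27 and 0.37. The effect itself lay between 0.19 and 0.27 at day 7 and between 0.33 and 0.39 at day 21 over all alternatives.

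Hk2, the insulin-regulated hexokinase of heart and skeletal muscle, had 366, 342 and 345 CPM in the sham libraries of day 4 and 262, 301 and 278 CPM in the TAC libraries, with no overlap. Its log2 fold changes were -0.21, -0.33, -0.31 and -0.06 at days 2, 4, 7 and 21, with adjusted p-values of 0.361, 0.0588, 0.0722 and 0.845. At day 4 it passed by DESeq2 (adjusted p = 0.0454), with the day fitted alone (adjusted p = 0.0391) and without any 1 of 6 TAC libraries (adjusted p = 0.0279 to 0.0486). At day 7 it passed without TAC day 7 replicate 2 (-0.48, adjusted p = 0.00563) and without TAC day 21 replicate 2 (-0.31, adjusted p = 0.0461). In the average over days Hk2 fell by 0.23 (SE 0.06, adjusted p = 0.00536). Without the libraries with raised Myl7 this was -0.17 (adjusted p = 0.0614). At day 21, TAC replicate 2 had the highest Hk2 of all libraries (385 CPM) and TAC replicate 3 was below every sham library (276 CPM).

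The log2 ratio of Hk1 to Hk2 reads within a library needs no scaling between libraries. It was between -1.31 and -0.924 in the 12 sham libraries (median -1.12) and between -0.921 and -0.400 in the 12 TAC libraries (median -0.58). On reads all 12 TAC values lay above all 12 sham values, with a gap at the edge far smaller than the spread of either group. By RPKM the ranges overlapped, with -0.80 to -0.36 in sham and -0.55 to 0.19 in TAC. The difference averaged over days was 0.50 ± 0.06, a 1.42-fold higher ratio (exact permutation test within days, two-sided p = 1.25e-05, the smallest that its 160000 permutations can give; adjusted over 5 pairs p = 6.25e-05). By day the difference was 0.39, 0.65, 0.56 and 0.42.

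Per length, Hk1 made up 39.8% ± 2.02 (SD, n = 12) of the hexokinase 1 and 2 RPKM in sham and 47.9% ± 3.91 in TAC, with 10 of 12 TAC libraries above the highest sham share. At day 4 the share was 39.0% ± 1.45 in sham and 50.2% ± 2.73 in TAC (n = 3), and 3 of the 12 TAC libraries and 0 of the 12 sham libraries had more Hk1 than Hk2. The summed level of both genes was 105 ± 5.99 RPKM in sham and 105 ± 8.77 RPKM in TAC.

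**Figure D3:**
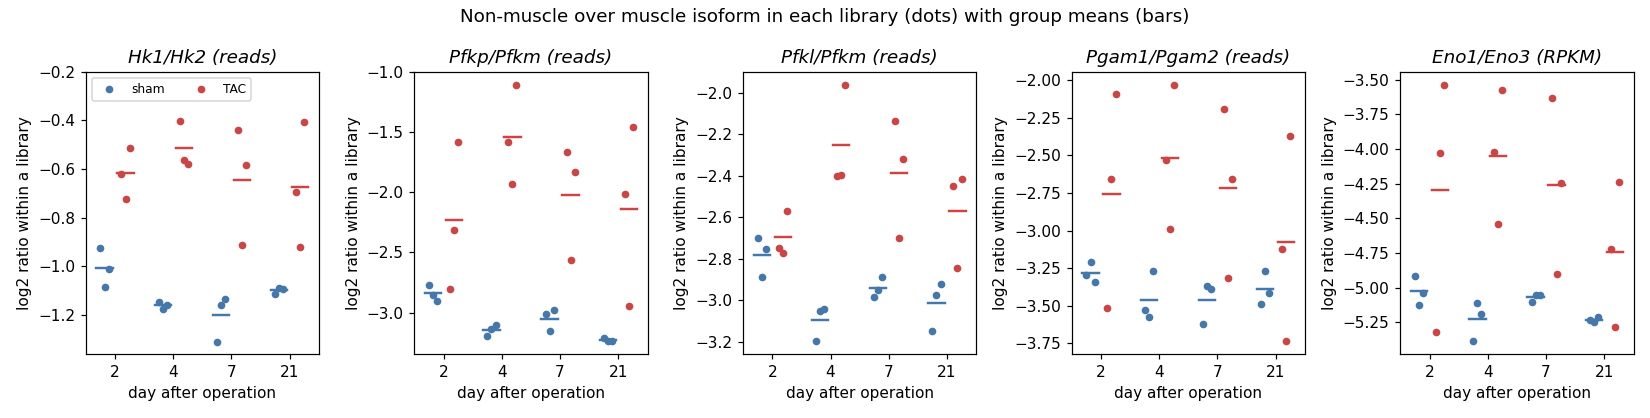
Log2 ratio of the non-muscle to the muscle form within each library by day (dots; blue sham, red TAC) with the mean of 3 libraries (bars), from reads with 0.5 added and for Eno1/Eno3 from RPKM. For Hk1/Hk2 the 12 TAC values (-0.921 to -0.400) lie above the 12 sham values (-1.31 to -0.924); the vertical axes differ between panels and do not start at 0.

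Pfkp, the platelet-type phosphofructokinase, showed the largest rise of the 10 genes. At day 4 the sham libraries had 59.9, 59.5 and 58.4 CPM and the TAC libraries 119, 109 and 126 CPM. At day 7 sham had 64.2, 53.1 and 64.7 CPM and TAC 94.2, 78.8 and 98.6 CPM. At day 21 sham had 57.1, 55.4 and 57.1 CPM and TAC 105, 72.8 and 122 CPM. The groups did not overlap at these 3 days, and at day 21 the TAC libraries were spread more widely than the sham libraries. At day 2 TAC replicate 3 was at 109 CPM, while replicate 1 (64.7 CPM) lay within the sham range of 63.1 to 71.4 CPM.

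For Pfkp the log2 fold changes were 0.31 ± 0.16 (adjusted p = 0.282), 0.99 ± 0.16 (adjusted p = 0.000507), 0.58 ± 0.16 (adjusted p = 0.0155) and 0.82 ± 0.16 (adjusted p = 0.0213) at days 2, 4, 7 and 21, and 0.68 ± 0.08 in the average over days (adjusted p = 3.26e-06). The calls of day 4 and of the average held in every alternative run. At day 7 the call ended without sham replicate 2 (0.49, adjusted p = 0.0703), without TAC replicate 1 (0.55, adjusted p = 0.0591), without TAC replicate 3 (0.52, adjusted p = 0.0606) and without the libraries with raised Myl7 (0.55, adjusted p = 0.105). At day 21 it ended without any 1 sham library (0.81 to 0.83, adjusted p = 0.0705 to 0.110), without TAC replicate 1 (0.79, adjusted p = 0.0873) or 3 (0.65, adjusted p = 0.122) and without the libraries with raised Myl7 (0.80, adjusted p = 0.125).

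Pfkp shares 17.1% of the 50-base words of its transcripts with its neighbour Pitrm1, and the sources used here do not state whether strand was used in counting. Pitrm1, a mitochondrial peptidase, moved by -0.12, -0.18, -0.34 (adjusted p = 0.0172) and -0.09 on the log2 scale, opposite in sign to Pfkp.

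Pfkl, the liver-type phosphofructokinase, did not pass the test on any day. At day 2 the sham libraries had 74.9, 66.7 and 70.0 CPM and the TAC libraries 67.3, 56.6 and 55.1 CPM. At day 4 sham had 59.8, 63.3 and 61.0 CPM and TAC 67.4, 78.8 and 69.4 CPM, with all TAC libraries above all sham libraries. The log2 fold changes were -0.24 ± 0.10 (adjusted p = 0.153), 0.23 ± 0.10 (adjusted p = 0.0856), 0.10 and 0.15, and 0.06 in the average (adjusted p = 0.339). Without TAC day 2 replicate 1 the day 2 effect passed the test (-0.34, adjusted p = 0.0296).

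Pfkm, the muscle phosphofructokinase, fell at day 4. The sham libraries had 549, 525 and 503 CPM and the TAC libraries 356, 415 and 270 CPM, with no overlap. At day 7 sham had 519, 474 and 510 CPM and TAC 299, 466 and 350 CPM, where TAC replicate 2 lay just below the lowest sham library. At day 21 TAC replicate 2, with 562 CPM, was above every sham library (523 to 537 CPM), and the other TAC libraries (423 and 335 CPM) were below.

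The effects of TAC on Pfkm came to -0.32 (adjusted p = 0.308), -0.60 ± 0.17 (adjusted p = 0.0149), -0.43 (adjusted p = 0.0707) and -0.27 (adjusted p = 0.426), and the average over days fell by 0.40 (SE 0.08, adjusted p = 0.000672). At day 4 the call ended without TAC replicate 3 (-0.44, adjusted p = 0.110). At day 7 Pfkm passed the test without TAC day 7 replicate 2 (-0.62, adjusted p = 0.0121) and, at adjusted p-values of 0.0417 to 0.0498, without TAC day 4 replicate 3, TAC day 21 replicate 2 or TAC day 21 replicate 3.

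The log2 ratio of Pfkp to Pfkm reads was -3.24 to -2.77 in sham libraries and -2.95 to -1.10 in TAC libraries. The groups overlapped at day 2 and were apart at days 4, 7 and 21. The difference averaged over days was 1.08 ± 0.17, a 2.12-fold higher ratio (exact permutation p = 2.5e-05, adjusted p = 6.25e-05), and at day 4 alone it was 1.61, or 3.05-fold. At day 2 it was 0.61, and 0.28 without TAC day 2 replicate 3. With 3 libraries against 3 the smallest exact permutation p of a single day is 0.1, which was reached at days 4, 7 and 21.

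The ratio of Pfkl to Pfkm rose less, by 0.48 ± 0.07 averaged over days (1.40-fold, exact permutation p = 6.25e-05, adjusted p = 0.000104). By day the difference was 0.08, 0.84, 0.56 and 0.44, with overlap at day 2. Averaged over days, Pfkl differed by 0.06 and Pfkm by -0.40.

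Per length Pfkp made up 6.84% ± 0.512 (SD, n = 12) of the phosphofructokinase RPKM in sham and 13.2% ± 3.68 in TAC, and its share in each of the 12 TAC libraries was above the highest sham share (7.73%). At day 4 the TAC share was 16.1% ± 3.60 (n = 3). Pfkl went from 8.23% ± 0.774 to 10.4% ± 1.35, with 7 of 12 TAC libraries above the highest sham share. Pfkm went from 84.9% ± 1.15 to 76.4% ± 4.78, and was the most abundant form in all 24 libraries. The family total was 241 ± 8.04 RPKM in sham and 200 ± 25.3 RPKM in TAC.

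**Figure D4:**
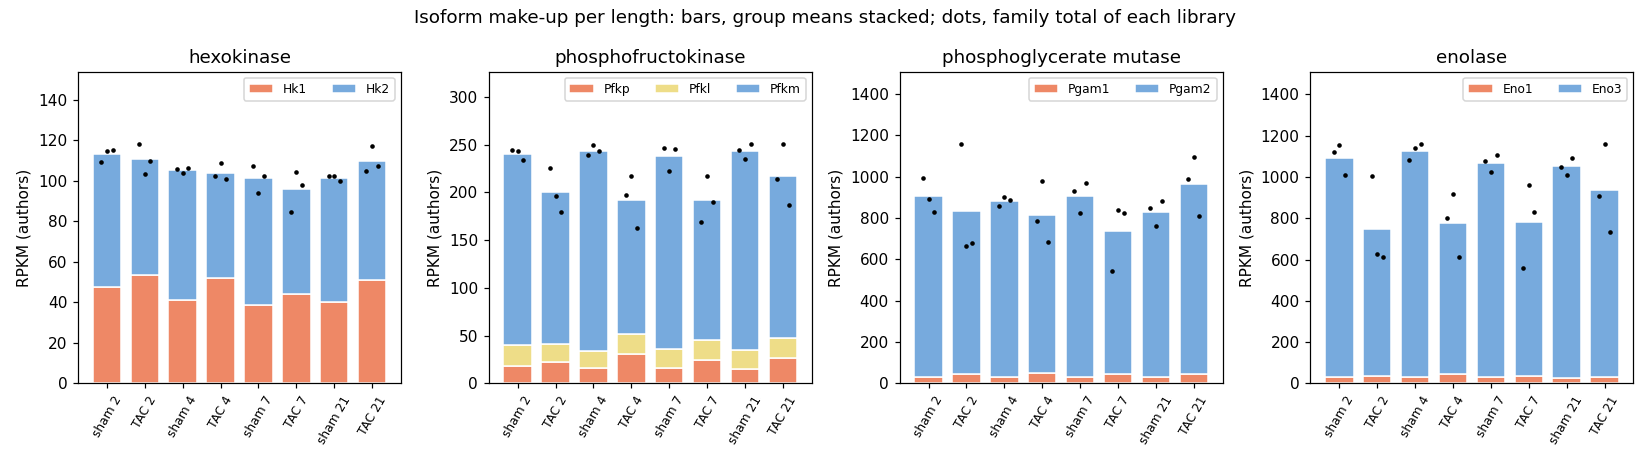
Authors' RPKM of each enzyme family by operation and day, with the group means of the isoforms stacked (bars, n = 3 libraries) and the family total of each library (black dots); axes start at 0. Hk1 and Hk2 together stay near 105 RPKM while Hk1 takes more of it after TAC, and Pfkm, Pgam2 and Eno3 remain the largest part of their families.

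Phosphofructokinase is also set by fructose 2,6-bisphosphate, its strongest activator, which the Pfkfb enzymes make and break down. Of the 4 Pfkfb genes tested, none rose by edgeR's test, and 0, 2, 1 and 0 fell at days 2, 4, 7 and 21 (1, 2, 3 and 1 of 4 had an unadjusted p under 0.05, among them Pfkfb4 with 0.56 at day 7). The shares of all genes that fell on these days were 0.854%, 10.1%, 10% and 0.47%, and 3.73%, 14.4%, 13.1% and 0.622% rose. Pfkfb2, the heart form, fell at day 4 from 144 ± 7.20 CPM in sham to 89.1 ± 12.6 CPM in TAC (SD, n = 3; log2 fold change -0.69 ± 0.16, adjusted p = 0.00388), and at day 7 its difference was -0.12 (adjusted p = 0.620). Pfkfb1 fell at days 4 and 7, by 1.18 (adjusted p = 0.0248) and 1.44 (adjusted p = 0.0104), from sham means of 12.7 and 14.4 CPM. Pfkfb3 and Pfkfb4 did not pass on any day, with averages of -0.15 and 0.07. The median over the 4 genes was -0.33, -0.47, -0.27 and -0.09 at days 2, 4, 7 and 21, against medians between -0.01 and 0.01 over all genes. Averaged over days, 2 of the 4 fell and none rose, where 21.4% of all genes fell and 24.4% rose.

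The steps between phosphofructokinase and phosphoglycerate mutase, and pyruvate kinase, have 1 main gene each in the heart. Aldoa, Tpi1, Gapdh, Pgk1 and Pkm, and also Gpi1 above them, did not pass the test on any day or in the average. Their average log2 fold changes were -0.12 (Aldoa), -0.04 (Tpi1), -0.03 (Gapdh), 0.07 (Pgk1), -0.14 (Pkm) and 0.01 (Gpi1), each with an SE of 0.07 or less. Of the list of 15 middle and lower glycolysis genes, 11 were tested, none rose by edgeR's test, and 0, 1, 2 and 0 fell at days 2, 4, 7 and 21 (3, 5 and 2 had an unadjusted p under 0.05 at days 2, 4 and 21). Among all genes 0.854%, 10.1%, 10% and 0.47% fell and 3.73%, 14.4%, 13.1% and 0.622% rose on these days. In the average over days 3 of the 11 fell and none rose, where 21.4% of all genes fell and 24.4% rose. On that average Bpgm, which makes 2,3-bisphosphoglycerate, fell by 0.39 (SE 0.09, adjusted p = 0.00125). Fbp2, the muscle fructose bisphosphatase, fell by 0.89 (SE 0.18, adjusted p = 0.000508). The median of the 11 genes was -0.12 in the average over days, against -0.00 for all genes.

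Pgam1, the phosphoglycerate mutase of brain and most tissues, rose at day 4. The sham libraries had 53.2, 47.9 and 56.1 CPM and the TAC libraries 81.5, 79.1 and 103 CPM. At day 7 sham had 48.5, 51.5 and 57.6 CPM and TAC 73.2, 60.8 and 81.1 CPM, and at day 21 sham had 48.4, 53.8 and 53.6 CPM and TAC 76.5, 58.0 and 94.1 CPM. The groups did not overlap on any of the 4 days. At day 2 the gap was narrow, with 62.0 CPM in the highest sham and 63.1 CPM in the lowest TAC library.

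The effects on Pgam1 were 0.39 (adjusted p = 0.190), 0.75 ± 0.16 (adjusted p = 0.00335), 0.45 (adjusted p = 0.0528) and 0.56 (adjusted p = 0.0980), and 0.53 ± 0.08 in the average over days (adjusted p = 3.77e-05). At day 7 it passed the test without TAC day 7 replicate 2 (0.56, adjusted p = 0.0223) and without any of 5 TAC libraries of other days, and also by DESeq2 (adjusted p = 0.0412) and with the day fitted alone (adjusted p = 0.0329). At day 21 it passed by DESeq2 (adjusted p = 0.0463) and without TAC day 21 replicate 2 (0.72, adjusted p = 0.0196). Of the 50-base words of its transcripts 41.5% also occur in other genes, among them the pseudogene Pgam1-ps2, and the sources do not state how such reads were counted.

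Pgam2, the muscle phosphoglycerate mutase, did not pass the test on any day. Its TAC libraries were spread from 334 to 773 CPM, and its sham libraries from 512 to 616 CPM. At day 2 TAC replicate 1 (721 CPM) was above and replicates 2 and 3 (410 and 405 CPM) were below every sham library. Its effects were -0.11, -0.19, -0.26 and 0.24, and -0.08 in the average over days (adjusted p = 0.562).

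The log2 ratio of Pgam1 to Pgam2 reads was -3.62 to -3.21 in sham and -3.74 to -2.03 in TAC. The groups were apart at days 4 and 7 and overlapped at days 2 and 21. The difference averaged over days was 0.63 ± 0.18, or 1.55-fold (exact permutation p = 0.00226, adjusted p = 0.00283), and by day it was 0.53, 0.94, 0.74 and 0.31. Single TAC libraries moved these: day 2 gave 0.91 without replicate 1 and 0.20 without replicate 3, day 7 gave 0.48 without replicate 1, and day 21 gave 0.64 without replicate 2 and -0.04 without replicate 3. Per length Pgam1 went from 3.54% ± 0.302 of the family in sham to 5.78% ± 1.96 in TAC (SD, n = 12), with 10 of 12 TAC libraries above every sham library and 1 below every one. The family total was 882 ± 64.9 RPKM in sham and 838 ± 186 RPKM in TAC.

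Eno1, the enolase of most tissues, could not be measured from the read counts. Its row held 0 to 14 reads per library, whereas the RPKM table gave it 24.4 to 48.4 RPKM. Reads and RPKM together implied a gene of 11.8 bases (median of 24 libraries), against 660 to 5408 bases for the other 9 genes. Of the 50-base words of its transcripts 72.2% occur in other genes, 70.5% in the near-identical Eno1b. The values below are therefore the authors' RPKM, tested with limma on log2(RPKM + 0.1) over 16672 genes, and the reads are not used for its direction.

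**Figure D5:**
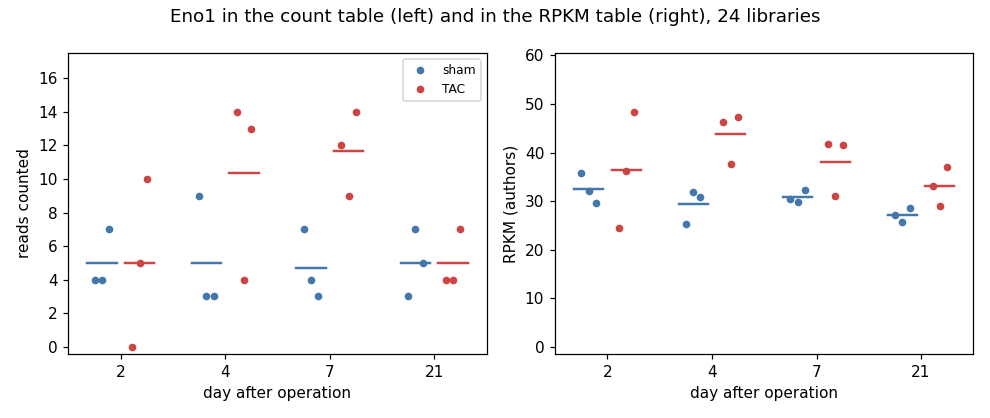
Eno1 in the 24 libraries by day, as reads of the count table (left, 0 to 14) and as the authors' RPKM (right, 24.4 to 48.4), with group means (bars; blue sham, red TAC). The count row is close to empty while the RPKM are at the level of Pgam1.

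By RPKM, Eno1 rose at day 4. The sham libraries lay at 25.2 to 31.9 RPKM and the TAC libraries at 37.6 to 47.2 RPKM, without overlap. The near-identical Eno1b had 0.18 to 7.62 RPKM in these sham and 0 to 0.15 RPKM in these TAC libraries. Sham replicate 3 had 30.8 RPKM of Eno1 and 7.62 RPKM of Eno1b, and TAC replicate 2 had 37.6 and 0 RPKM. With both genes added, the groups of day 4 thus overlap. How reads that both genes share were assigned is not stated. At day 2 the TAC libraries spanned 24.4 to 48.4 RPKM, on both sides of the sham range of 29.7 to 35.7 RPKM. The groups overlapped at day 7 (29.9 to 32.2 RPKM in sham, 31.0 to 41.8 RPKM in TAC) and were narrowly apart at day 21 (25.7 to 28.6 and 29.0 to 37.0 RPKM). By limma the effects were 0.11 (adjusted p = 0.817), 0.57 ± 0.18 (adjusted p = 0.0298), 0.29 (adjusted p = 0.267) and 0.28 (adjusted p = 0.466), and 0.31 ± 0.09 in the average (adjusted p = 0.00929). By that test 19.3% of all genes passed at day 4 (11.3% higher) and 37.5% in the average (20.8% higher).

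Eno3, the muscle enolase and the most abundant of the 10 genes in sham hearts, fell at day 4 from 1401, 1349 and 1349 CPM in sham to 908, 1088 and 695 CPM in TAC, without overlap. At day 2 sham had 1302, 1359 and 1182 CPM and TAC 1172, 717 and 686 CPM, so that TAC replicate 1 lay just below the sham libraries and the other 2 far below. At day 21 TAC replicate 2, with 1507 CPM, was above every sham library (1253 to 1317 CPM), and the other TAC libraries were below.

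Eno3 had effects of -0.58 (adjusted p = 0.143), -0.61 ± 0.22 (adjusted p = 0.0498), -0.44 (adjusted p = 0.150) and -0.14 (adjusted p = 0.774), and it fell by 0.44 (SE 0.11, adjusted p = 0.00276) in the average over days. The call of day 4 lies at the threshold and held in 15 of 34 alternatives. It ended without any 1 of 17 libraries, most of them of other days. Among the libraries of day 4 these were the 3 sham libraries (adjusted p = 0.0937 to 0.104), TAC replicate 1 (adjusted p = 0.0976) and TAC replicate 3 (-0.45, adjusted p = 0.238). At day 2 it passed without TAC day 2 replicate 1 (-0.87, adjusted p = 0.0134), and at day 7 without TAC day 7 replicate 2 (-0.68, adjusted p = 0.0336). The call of the average held in all 33 alternatives that give one.

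The log2 ratio of Eno1 to Eno3 by RPKM was -5.39 to -4.92 in sham and -5.32 to -3.54 in TAC, with overlap at days 2 and 21. The difference averaged over days was 0.80 ± 0.19, or 1.74-fold (exact permutation p = 0.000638, adjusted p = 0.000797). From the reads it was 0.67 ± 0.45 (exact permutation p = 0.145), on the few Eno1 reads. Eno1 went from 2.76% ± 0.228 of the family RPKM in sham to 5.05% ± 1.95 in TAC (SD, n = 12), and the family total was 1085 ± 53.6 RPKM in sham and 810 ± 187 RPKM in TAC.

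Pyruvate leaves glycolysis as lactate or enters the mitochondrion, and all 6 lactate genes listed were tested. Slc16a3 (MCT4), the lactate exporter of glycolytic cells, rose at days 4 and 7 by 2.50 ± 0.58 (adjusted p = 0.00429) and 1.76 ± 0.56 (adjusted p = 0.0299), to no more than 2.68 ± 1.05 CPM at day 4. Ldha, the lactate dehydrogenase subunit of muscle and proliferating cells, rose at day 4 (0.24 ± 0.09, adjusted p = 0.0421). Ldhb, the heart subunit, fell by 0.84 (adjusted p = 0.0107) at day 4 and by 0.74 (adjusted p = 0.0231) at day 7. Bsg, the chaperone of the lactate transporters, fell at day 7 (-0.50 ± 0.16, adjusted p = 0.0331), and the transporter Slc16a7 (MCT2) at days 2 and 21 (-0.97, adjusted p = 0.0133, and -1.12, adjusted p = 0.0150), at no more than 6.92 CPM. In all, 0, 2, 1 and 0 of 6 rose and 1, 1, 2 and 1 fell at days 2, 4, 7 and 21. Of all genes 3.73%, 14.4%, 13.1% and 0.622% rose and 0.854%, 10.1%, 10% and 0.47% fell on these days. The median of the 6 genes was -0.19, -0.06, -0.10 and 0.04, against medians between -0.01 and 0.01 over all genes. In the average over days 2 of the 6 rose and 3 fell, where 24.4% of all genes rose and 21.4% fell.

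Several of the non-muscle forms are known targets of the hypoxia-inducible factors, so genes of that response outside glycolysis were read beside them. Of 13 listed, 12 were tested, and 0, 1, 2 and 1 rose and 1, 2, 2 and 0 fell at days 2, 4, 7 and 21. At days 4 and 7, where 14.4% and 13.1% of all genes rose and 10.1% and 10% fell, these shares are near those of all genes. At days 2 and 21, 3.73% and 0.622% of all genes rose and 0.854% and 0.47% fell. P4ha1, a prolyl hydroxylase of collagen, rose at day 4 (0.79 ± 0.17, adjusted p = 0.00321) and day 21 (0.72 ± 0.17, adjusted p = 0.0487). Hif1a rose at day 7 (0.41 ± 0.14, adjusted p = 0.0395). Egln1, which marks the factor for degradation, and Hif3a fell at days 4 and 7, Egln1 by 0.55 (adjusted p = 0.0215) and 0.60 (adjusted p = 0.0156). The median of the 12 genes in the average over days was -0.02, against -0.00 for all genes. On that average 2 of the 12 rose and 2 fell, where 24.4% of all genes rose and 21.4% fell.

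Whether the effect of TAC on a member differed between days was tested directly. None of the 10 passed in any contrast between days by edgeR's test, where few genes of any kind did: 0% between days 2 and 4, 0.0507% between days 4 and 7, 0.0651% between days 7 and 21, 0.0145% between days 2 and 21, and 0.369% in the joint test. At an unadjusted p under 0.05 there were 2 between days 2 and 4, 2 between days 2 and 21 and 2 in the joint test, each time Pfkl and Pfkp, and 0 in the others. DESeq2, which gave the 4 contrasts of single days, and limma voom called 0. Pfkl had the smallest p: its effect was 0.47 ± 0.13 higher at day 4 than at day 2 (unadjusted p = 0.00220, adjusted p = 0.327), and that of Pfkp 0.68 ± 0.23 higher (adjusted p = 0.414). The values by day above thus do not show a time course beyond their error.

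The TAC libraries of a day differed from each other, and they did so in the same order for several members. The library with the lowest ratio of Pfkp to Pfkm, of Pgam1 to Pgam2 and of Eno1 to Eno3 was replicate 1 at day 2 and replicate 2 at days 4, 7 and 21. These 4 libraries also had the lowest summed level of fibroblast markers and of macrophage markers of their group and the highest of cardiomyocyte markers. The libraries with the highest ratios were matched less closely. These ratios all peaked in replicate 3 at days 2 and 4. Fibroblast markers peaked in replicate 2 at day 2 (3187 CPM), and macrophage markers in replicate 1 at day 4 (959 CPM). On their other days both lists peaked in the library with the highest of these ratios. At day 7, for instance, TAC replicate 2 had a log2 Pfkp to Pfkm ratio of -2.56, with 2007 CPM of fibroblast, 384 CPM of macrophage and 191129 CPM of cardiomyocyte markers. Replicate 1 of that group had -1.67, with 9202, 649 and 129657 CPM.

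At day 21 the pattern was the same: TAC replicate 2 had -2.95 and 1433 CPM of fibroblast markers, and replicate 3 had -1.46 and 4615 CPM. At day 2 replicate 1 had -2.81 and 1776 CPM of fibroblast markers, within the sham range of 1682 to 1977 CPM. The ratio of Hk1 to Hk2 followed this order at days 7 and 21 only: its lowest library was replicate 2 at day 2 and replicate 3 at day 4. That of Pfkl to Pfkm also followed it at days 7 and 21 only. Its lowest library at day 2 was replicate 2 (-2.770, against -2.750 in replicate 1). At day 4 it was replicate 1 (-2.401, against -2.398 in replicate 2). Across groups, fibroblast markers summed to 1441 to 1719 CPM in sham and 4366 to 8783 CPM in TAC at day 4, and macrophage markers to 300.2 to 349 CPM and 713 to 959 CPM. The part of these cells in the shifts of the isoforms was not tested.

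The genes whose log2 CPM was most like that of each member over the 24 libraries were looked up among 9012 well-expressed genes. The nearest to Pfkp was Pgam1 (Pearson r = 0.948), followed by Fuca2 (r = 0.946) and Fxyd5 (r = 0.937). The nearest to Pgam1 was Pfkp, followed by Pdlim5 (r = 0.942) and Picalm (r = 0.931). Pfkm was most like Pygm, the muscle glycogen phosphorylase (r = 0.983), Apbb1 (r = 0.979) and Ldhb (r = 0.979). Eno3 was most like Mb, myoglobin (r = 0.960), Ckm, the muscle creatine kinase (r = 0.960), and Ndufv3 (r = 0.952). Hk2 was most like Ndufa13 (r = 0.934), Uqcrc1 (r = 0.932) and Slc25a4 (r = 0.928), all genes of mitochondrial energy supply, and Pgam2 like Suds3 (r = 0.901), Ndufa8 (r = 0.898) and Bola3 (r = 0.895). Hk1 (Ehd4, Nars and Pdlim5, r = 0.792 to 0.753), Slc2a1 (Rtel1, Copa and Dis3, r = 0.762 to 0.725) and Pfkl (Shank1, Ugp2 and Rom1, r = 0.747 to 0.705) had no gene as close; for Eno1 the reads are too few. These correlations span both operations and all days and share library depth and cell make-up, and are descriptions.

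Because Pfkp and Pgam1 rose together while their muscle partners did not, the bases before their start sites are shown beside those of the muscle forms Hk2, Pgam2 and Eno3. These 5 genes have 1 start site each in the RefSeq promoter table of build GRCm38.p6, in which all 10 members were found. Shown are the 250 bases upstream of the start on the gene's strand, 5′ to 3′, at chr13:6648772-6649021 (Pfkp, minus strand), chr19:41911621-41911870 (Pgam1, plus strand), chr6:82774455-82774704 (Hk2, minus strand), chr11:5803797-5804046 (Pgam2, minus strand) and chr11:70656926-70657175 (Eno3, plus strand). Capitals mark ACGTG or GCGTG on either strand, the core letters of hypoxia response elements, and in Pgam2 a match to the MEF2 motif of muscle promoters.
Pfkp: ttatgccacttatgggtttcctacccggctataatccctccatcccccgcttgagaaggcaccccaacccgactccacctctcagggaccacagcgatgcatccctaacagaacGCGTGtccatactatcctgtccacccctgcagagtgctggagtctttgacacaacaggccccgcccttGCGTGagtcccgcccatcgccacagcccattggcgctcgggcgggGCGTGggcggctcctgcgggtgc
Pgam1: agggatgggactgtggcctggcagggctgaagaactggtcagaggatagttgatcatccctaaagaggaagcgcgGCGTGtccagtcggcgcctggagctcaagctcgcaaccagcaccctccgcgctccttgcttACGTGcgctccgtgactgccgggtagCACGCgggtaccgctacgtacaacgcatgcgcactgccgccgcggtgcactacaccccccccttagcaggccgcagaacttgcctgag
Hk2: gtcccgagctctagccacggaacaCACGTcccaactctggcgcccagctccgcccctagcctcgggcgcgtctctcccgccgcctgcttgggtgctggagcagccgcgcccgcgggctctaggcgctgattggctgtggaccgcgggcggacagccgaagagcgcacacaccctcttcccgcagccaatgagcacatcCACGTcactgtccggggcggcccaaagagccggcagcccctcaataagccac
Pgam2: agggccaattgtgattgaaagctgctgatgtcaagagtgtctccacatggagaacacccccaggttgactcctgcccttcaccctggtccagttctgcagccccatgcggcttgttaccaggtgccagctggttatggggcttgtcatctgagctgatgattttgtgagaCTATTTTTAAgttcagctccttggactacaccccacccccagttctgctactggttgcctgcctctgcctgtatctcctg
Eno3: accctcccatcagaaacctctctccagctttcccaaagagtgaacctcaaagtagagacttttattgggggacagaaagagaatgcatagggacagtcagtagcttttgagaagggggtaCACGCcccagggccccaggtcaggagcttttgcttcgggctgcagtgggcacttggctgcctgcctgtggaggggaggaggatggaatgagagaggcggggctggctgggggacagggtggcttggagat

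Pfkp held GCGTG 3 times (at -136, -68 and -23 from the start) and GGGCGG, the GC box letters, 4 times, 1 of which overlaps the last GCGTG by 1 base. Pgam1 held ACGTG once and GCGTG in 2 places, Eno3 held GCGTG at -130, and Pgam2 held neither but a MEF2 match at -80. The muscle form Hk2 held ACGTG 2 times (at -226 and -52, printed as CACGT) and GGGCGG 3 times. Neither CACGTG, which contains ACGTG, nor TATAAA occurred in the 5 sequences; Pfkm, with 4 start sites, held CACGTG before 1 of them. Of 32526 promoters of this length, 16.7% hold ACGTG, 28.4% GCGTG, 33% GGGCGG, 6.04% CACGTG, 12.3% TATAAA and 2.89% the MEF2 motif, on either strand. GC content was 62.8% for Pfkp and 64% for Pgam1, 69.6% for Hk2, 53.2% for Pgam2 and 57.2% for Eno3, where the median promoter has 52.4%. Pfkp held 16, Pgam1 22 and Hk2 25 CG dinucleotides, against 1 in Pgam2 and 3 in Eno3 and a median of 6. By count, GCGTG was more frequent in Pfkp (3) and Pgam1 (2) than in Eno3 (1), Hk2 (0) and Pgam2 (0). Its mere presence, the other motifs and the base composition did not separate the non-muscle from the muscle forms shown. Among non-muscle forms not shown, Pfkl held it once, like Eno3. Hk1 held it 3 times before 1 start site and 0 times before the other. Eno1 held it 1, 2 and 2 times before its 3 start sites. Pfkm, the muscle partner of Pfkp, held it 0, 1, 1 and 0 times before its 4 start sites, and ACGTG before sites 1 and 2. The 5 promoters were chosen after their values were seen, so they cannot decide the question for the forms in general. A match of letters is a description of the sequence and not a binding site.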

How the data were processed

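Left ventricular total RNA was amplified with a NuGEN Ovation kit and sequenced on a NextSeq500, per the labels' protocols. The authors deposited a table of read counts per gene and a table of RPKM, which the submitters' processing notes tie to TopHat and DESeq; the labels and headers name no counting tool, strand setting or mouse annotation, and the only build named, hg19, is human. Counts were tested in R 4.3.3 with edgeR 4.0.16 (TMM scaling, filterByExpr, quasi-likelihood test on 8 group means, 16 residual degrees of freedom, Benjamini-Hochberg threshold 0.05). DESeq2 1.42.0, limma voom and limma 3.58.1 on log2(RPKM + 0.1) were alternatives; the last was also used for Eno1, since its count row is close to empty. The fit was tested on simulated data. Isoform ratios used reads + 0.5 and exact permutation within days (Python 3.11.15 with numpy 2.4.6), adjusted over 5 pairs. Shares per length used RPKM as deposited. Library depth was 10.7 to 17.6 M reads (median 13.3 M).

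The members and gene lists were chosen with earlier results of these data known. All 10 members were named throughout; of each list the up to 4 genes with the smallest p in the average over days, and per member the 3 most correlated genes. Some genes that this rule names are not reported here. Gapdh, Aldoa, Tpi1, Pgk1, Gpi1 and Ldha, and the 5 promoters shown, were chosen after their values were seen.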

Additional observations from a re-analysis of the deposited data

How the results depend on the processing

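No called value changed sign in any alternative. Hk1, Pfkp and Pgam1 at day 4 passed in all 34 alternatives, and the averages of Hk1, Pfkp, Pgam1, Pfkm and Eno3 in all 33 that give one. On RPKM with either pseudocount (0.1 or 1), 1 member in place of 2 fell at day 4, 1 in place of 0 fell at day 7 (Pfkm), and 1 in place of 2 rose at day 7 and at day 21. Without the 4 libraries with raised Myl7, 0 rose at day 7 and 0 at day 21, and with each day fitted alone 0 rose at day 21; smaller fits have fewer libraries behind the spread. Leaving out 1 library at a time gave 0 to 2 members lower at day 2, 0 to 3 lower at day 4 and at day 7, and 0 to 3 higher at day 7 and at day 21. The Eno1 to Eno3 ratio from reads, 0.67, was 0.62 with a pseudocount of 5 (adjusted exact permutation p = 0.0146), 0.80 from RPKM, and 0.44 to 1.02 without 1 library (1.02 without TAC day 2 replicate 1); without a pseudocount it was not run, since a library had 0 reads. The averages of the other ratios stayed within 0.47 to 0.54 (Hk1/Hk2), 0.998 to 1.18 (Pfkp/Pfkm), 0.45 to 0.52 (Pfkl/Pfkm) and 0.54 to 0.73 (Pgam1/Pgam2) without 1 library. The deviations of same-numbered TAC and sham libraries from their group means had correlations of -0.15 to 0.14. With 3 libraries per group these cannot show whether the numbers mark samples handled together. With the replicate block 1 member fell at day 7 (Pfkm, -0.44, adjusted p = 0.0407) in place of 0, and Pgam1 rose there as well (0.44, adjusted p = 0.0234). DESeq2 gave no joint test between days and none over the sham groups. The few reads in the Eno1 row leave it without a usable value from counts.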
